A study of Mus musculus with 18 samples.

Results

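The general transcription machinery was taken here as the protein-coding genes of GENCODE vM21 whose symbols begin with Polr1, Polr2 or Polr3 and a letter, with Taf or Med and a digit, or with Gtf2. They are subunits of RNA polymerases I, II and III, general transcription factors, TBP-associated factors and Mediator subunits, and 96 of the 27874 genes in the deposited table met the rule. RNA had been sequenced from 18 libraries of 15 mouse oocytes each. Oocytes came from wild-type mice (WT) and from mice labelled Lsm14b-/- (KO), whose missing gene encodes an mRNA-binding protein found in granules of stored RNA. Collection was before meiosis resumes (germinal vesicle, GV), in metaphase I (MI), and 14 h past the hormone hCG, with 3 replicate libraries in each of 6 groups. The last time point is labelled MII in both genotypes, and the labels leave unsaid how many KO oocytes were in metaphase II. The sources used here give no strain, age or number of mice per library and do not say whether replicates came from separate mice, so p-values measure the spread between these libraries, which may be technical.

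Transcription by RNA polymerase II starts when TFIID, which holds TBP and its associated factors (TAFs), binds a core promoter and TFIIA, TFIIB, TFIIF, TFIIE and TFIIH join it with the polymerase, while Mediator links this complex to activators bound elsewhere. RNA polymerases I and III make ribosomal RNA and small RNAs such as tRNA, and share several subunits with polymerase II. A fully grown oocyte is largely silent in transcription and matures on mRNA stored during growth, part of which is translated and part cleared before the embryo starts its own transcription. Levels are given as FPKM, a read density scaled to exon length and to library depth, as deposited by the authors. cDNA was primed with oligo(dT), so that levels may depend on poly(A) tails, and the part of tails in any result was not tested.

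By the steps of the FPKM values, a single read on 1 kb of exon was worth 0.0582 to 0.0703 FPKM. That implies a depth of 14227690 to 17183649 reads per library. Lsm14b was at 2.30 ± 0.265, 7.08 ± 3.60 and 9.34 ± 1.73 FPKM in WT at GV, MI and MII (mean ± SD, n = 3 libraries, as in all values of this form) and at 0.116 ± 0.117, 0.124 ± 0.00293 and 0.113 ± 0.0953 FPKM in KO. All 12 oocyte markers reached 1 FPKM in every group, with summed levels of 9898 to 26461 FPKM per library. The 14 markers of cumulus and granulosa cells summed to 5.36 to 9.22 FPKM in WT and 9.96 to 12.5 in KO at GV, with no overlap, and to 6.54 to 10.9 in the other libraries. The list had 5 genes tested, of which 2 were higher and 0 lower in KO at GV; Ptx3 and Tnfaip6 were at 0 in all GV libraries and Foxl2 in those of WT. The part of these markers in the differences between genotypes at GV was not tested. The 9 markers of theca, stroma and endothelium summed to 2.49 to 6.97 FPKM, and the 7 of blood to 0.524 to 29.8, with the highest value in 1 WT MI library. KO GV replicates 2 and 3 stood apart from the rest: the deviations of their genes from the group means had an SD of 0.522 and 0.476 on the log2(FPKM + 1) scale, against at most 0.327 in the other libraries.

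Of the 96 genes, 83 had at least 1 FPKM in at least 3 libraries and were tested, among them 24 of 28 polymerase subunits, 13 of 16 TFII factors, 20 of 22 TAFs and 26 of 30 Mediator subunits. The other 13 were Gtf2h4, Gtf2i, Gtf2ird2, Med10, Med12, Med12l, Med16, Polr1b, Polr2a, Polr3g, Polr3gl, Taf1c and Taf7l. The rule also took in genes that are no core subunits: Taf15, an RNA-binding protein of the FET family, Polr2m, which inhibits polymerase II, Taf5l and Taf6l of the SAGA complex, and the TFII-I family. In counts by name they stand with the polymerase subunits (Polr2m), the TAFs (Taf15, Taf5l and Taf6l) and the TFII factors. TBP itself carries another name and is given with the other genes of the pathway.

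The subunits of 1 complex were present at very different mRNA levels. In WT at GV the most abundant members were Polr2d and Polr2g, which form the stalk of polymerase II, at 657 ± 116 and 634 ± 80.9 FPKM, and the Mediator subunit gene Med28 at 519.7 ± 25.0 FPKM. Polr2a, which encodes the largest, catalytic subunit of the same polymerase, was measured at 0.140, 0.155 and 0.0497 FPKM in the WT GV libraries, 0.277, 0.270 and 0.120 at MI and 0.394, 0.344 and 0.296 at MII. In KO its values were 0.664, 1.02 and 0.167 FPKM at GV, 0.404, 0.511 and 0.625 at MI and 0.580, 0.630 and 0.589 at MII, from 5 to 106 reads per library over an exon length of 7067 bases in all 18 libraries. The KO values lay above the WT values at each stage, but in a fit with no filter the log2 differences of 0.50, 0.31 and 0.25 at GV, MI and MII had limma adjusted p of 0.0735, 0.326 and 0.438. The second largest polymerase II subunit, Polr2b, was at 36.0 ± 4.84 FPKM in WT at GV. Of the largest subunits of the other polymerases, Polr1a was at 1.84 ± 0.611 FPKM and Polr3a at 12.9 ± 5.94 FPKM. By MII in WT, Med30 (449.8 ± 45.5 FPKM) and Med27 (413 ± 63.9 FPKM) of Mediator were the 2 highest members. A mean under 1 FPKM was found for 26 of the 96, against 19 at GV. Over the whole table, 7986 to 8552 genes reached 1 FPKM in a WT GV library and 7581 to 8019 in a WT MII library. The levels of all members together summed to 4044 to 4624 FPKM per library in WT at GV and 3314 to 3781 in KO, to 4687 to 4967 and 3636 to 3867 at MI, and to 3148 to 3598 and 2771 to 3464 at MII. The summed levels of the genotypes did not overlap at GV and MI and overlapped at MII. These sums are weighted to the few most abundant genes. By gene, the KO minus WT log2 difference was above 0 for 39 and below 0 for 44 of the 83 members tested at GV. At MI it was above 0 for 26 and below 0 for 57.

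KO and WT oocytes were compared at each stage with limma on log2(FPKM + 1), with p-values adjusted over all 10320 genes tested. At MI the members that differed were all lower in KO: 22 of 83 were lower and 0 higher, while 13.7% of all genes tested were lower and 3.63% higher (17.3% in either direction). At an unadjusted p of 0.05, 34 were lower and 2 higher, and voom on the recovered reads gave 19 lower and 0 higher. At GV, where the summed level of the cumulus and granulosa markers was higher in KO and 2 of the 5 tested were called higher, 10 members were lower and 5 higher. Of all genes tested, 7.49% and 13.3% were called in these directions. At MII 21 were lower and 16 higher, with 13.8% and 14.9% of all genes tested. The median log2 difference of the members was -0.04, -0.32 and -0.04 at GV, MI and MII, against 0.17, -0.13 and 0.01 over all genes tested. Of the members 48 of 83 (57.8%) were called at 1 or more stages, against 46.2% of all genes tested. No member was called in opposite directions at different stages, which held 0.368% of all genes tested.

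The counts at GV and MI changed with single libraries and with the scaling. At GV 1 member was higher and 7 lower without WT GV replicate 3, 19 were higher and 14 lower without KO GV replicate 3, and 1 was higher and 12 lower without KO GV replicate 2. Median-of-ratios scaling, which moved the median difference of all genes at GV from 0.17 to -0.04, gave 22 lower and 5 higher. In a fit of only the 2 GV groups 0 were higher and 3 lower, namely Med27, Med31 and Taf13. At MI 12 were lower and 0 higher without WT MI replicate 2, and median-of-ratios scaling, which moved the median of all genes to 0.015, gave 15 lower and 4 higher, and quantile normalization 19 and 5. At MII the counts kept within 1.5 times in each alternative, and 28 of the 37 calls were kept in all of them.

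**Figure D1:**
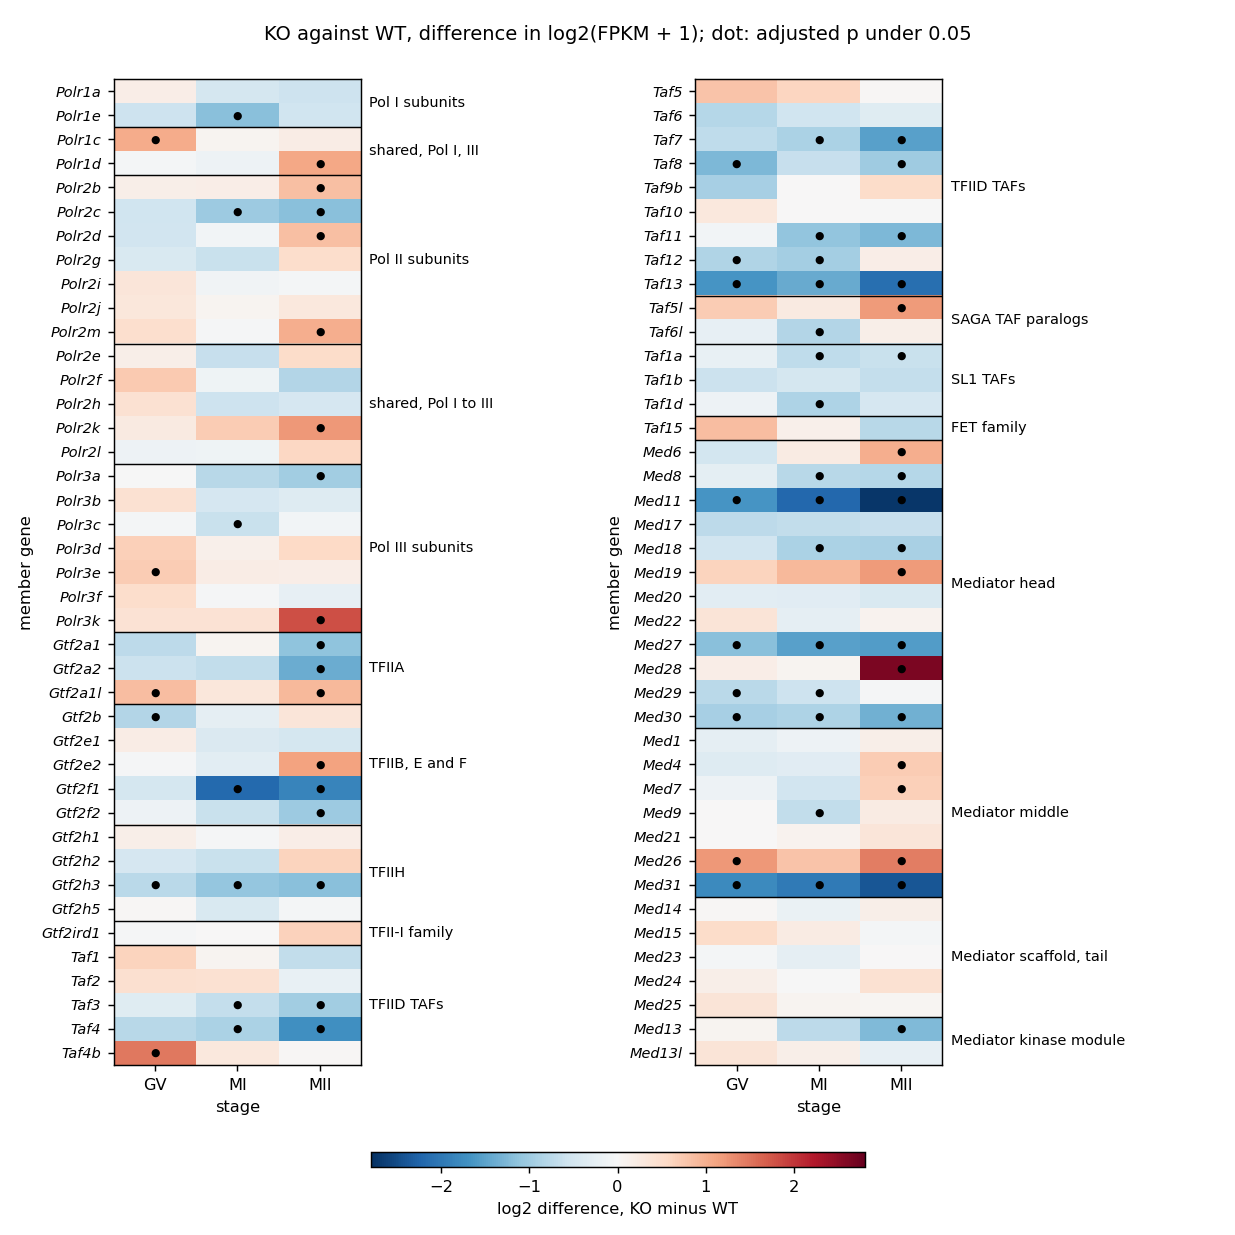
Difference between KO and WT oocytes in log2(FPKM + 1) at GV, MI and MII (columns) for 82 of the 83 members tested (rows, by role), with red for higher and blue for lower in KO and a dot where the limma adjusted p was under 0.05. The MI columns hold 22 dots, all on blue cells, and the MII columns hold 15 dots on red and 21 on blue cells.

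Among the genes named as polymerase subunits, Polr2m included, more were higher than lower in KO at MII. There 7 of 24 were higher, Polr2m among them (log2 1.01, limma adjusted p = 0.00295), and 2 lower. At GV 2 were higher and 0 lower, and at MI 0 higher and 3 lower. Of all genes tested, 14.9% were higher and 13.8% lower at MII, 13.3% and 7.49% at GV, and 3.63% and 13.7% at MI. In either direction 8.33%, 12.5% and 37.5% of the subunits were called at GV, MI and MII, against 20.8%, 17.3% and 28.6% of all genes tested. The median difference of the subunits was 0.29, -0.11 and 0.25 at GV, MI and MII, against 0.17, -0.13 and 0.01 over all genes tested. The higher members at MII included Polr2b, Polr2d, Polr1d and Polr3k, and the lower ones were Polr2c and Polr3a.

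Polr3k, a small subunit of polymerase III that takes part in ending transcripts, had the largest rise among them. WT libraries held 39.6, 43.5 and 36.4 FPKM at GV, 36.1, 43.3 and 57.5 at MI and 17.7, 16.9 and 14.7 at MII, and KO libraries 58.3, 40.4 and 63.3 at GV, 58.7, 68.3 and 53.5 at MI and 59.6, 61.8 and 56.7 at MII. The WT libraries at MII were the lowest of all, and the KO libraries at MII lay within the range of those at GV, with no overlap between the genotypes at MII (KO minus WT 1.80 in log2, SE 0.22, adjusted p = 1.01e-05). Polr2d was at 265, 325 and 241 FPKM in WT at MII and 507, 406 and 578 in KO (KO minus WT 0.84 in log2, SE 0.24, adjusted p = 0.0128), a call lost without WT MII replicate 3 or KO MII replicate 3 (highest adjusted p of 0.0616) and with median-of-ratios scaling. Polr2b, which forms the cleft of polymerase II with Polr2a, was at 32.7, 50.4 and 32.4 FPKM in WT and 73.3, 68.8 and 63.3 in KO at MII (KO minus WT 0.84 in log2, SE 0.22, adjusted p = 0.00709). Polr1d, shared by polymerases I and III, was at 2.28 ± 0.704 FPKM in WT and 6.0 ± 1.62 in KO (KO minus WT 1.09 in log2, SE 0.28, adjusted p = 0.00649).

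Polr2c went the other way. It encodes the subunit on which polymerase II assembly starts, together with that of Polr2j. It was at 166, 148 and 172 FPKM in WT and 96.9, 143 and 93.1 in KO at GV, with a log2 difference of -0.57 that was not called (adjusted p = 0.0634). At MI it was at 214, 217 and 184 FPKM in WT and 89.9, 107 and 106 in KO (KO minus WT -1.01 in log2, SE 0.21, adjusted p = 0.003) and at MII at 260.0, 260.4 and 302 FPKM in WT and 102, 121 and 141 in KO (KO minus WT -1.18 in log2, SE 0.21, adjusted p = 0.00041). The KO values lay below the WT values at all 3 stages; other genes overlap 18.1% of its exon bases, so that some reads cannot be assigned. Polr1e, a polymerase I subunit, was called lower at MI (WT 6.61 ± 3.17 FPKM, KO 2.22 ± 0.409 FPKM, KO minus WT -1.17 in log2, SE 0.26, adjusted p = 0.0042); its differences of -0.58 at GV and -0.56 at MII were not called (adjusted p = 0.107 and 0.115).

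Of the largest subunits, Polr1a was not called at any stage, with log2 differences of 0.19, -0.49 and -0.57 (adjusted p = 0.622, 0.235 and 0.127). Polr3a was lower in KO at MII, at 5.54, 6.61 and 5.22 FPKM in WT and 2.94, 2.33 and 2.17 in KO (KO minus WT -0.96 in log2, SE 0.30, adjusted p = 0.0194). That call was lost without WT MII replicate 2, KO MII replicate 2 or KO MII replicate 3 (adjusted p of 0.054 to 0.0722), with no filter and with a pseudocount of 5. Polr1c and Polr3e were the polymerase genes higher in KO at GV: Polr1c, shared by polymerases I and III, was at 1.06 ± 0.158 FPKM in WT and 3.29 ± 1.13 in KO (KO minus WT 1.03 in log2, SE 0.23, adjusted p = 0.00553). The Polr3e call (log2 0.72, adjusted p = 0.0295) was lost without any 1 WT GV replicate or without KO GV replicate 1 or 2 (adjusted p of 0.0577 to 0.14), with no filter and with a pseudocount of 0.1.

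Among the genes named as TFII factors, which include the paralog Gtf2a1l and Gtf2ird1 of the TFII-I family, 5 were lower and 2 higher of 13 in KO at MII, against 2 lower and 1 higher at GV and 2 lower and 0 higher at MI. In either direction that was 53.8% at MII, 23.1% at GV and 15.4% at MI, against 28.6%, 20.8% and 17.3% of all genes tested. Gtf2f1, the large subunit of TFIIF, which escorts polymerase II to the promoter, was at 34.9, 28.9 and 33.0 FPKM in WT and 15.3, 42.9 and 16.9 in KO at GV. The GV groups overlapped, since KO GV replicate 2 was above every WT library, and the difference was not called (log2 -0.50, adjusted p = 0.241). At MI it was at 20.1, 29.8 and 13.7 FPKM in WT and 3.29, 4.13 and 3.70 in KO (KO minus WT -2.18 in log2, SE 0.31, adjusted p = 0.000106), and at MII at 7.81, 7.58 and 6.70 FPKM in WT and 1.35, 1.33 and 1.25 in KO (KO minus WT -1.85 in log2, SE 0.31, adjusted p = 0.000199). KO libraries at MI were thus below WT libraries at MII. Its partner Gtf2f2 was lower at MII, at 53.8 ± 18.7 FPKM in WT and 25.7 ± 7.42 in KO (KO minus WT -1.03 in log2, SE 0.26, adjusted p = 0.00526). Both TFIIF calls at MII held in each alternative.

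Of the 2 subunits of TFIIE, which recruits TFIIH, Gtf2e2 was higher in KO at MII. It was at 35.3, 37.5 and 24.9 FPKM in WT and 67.2, 65.3 and 81.8 in KO (KO minus WT 1.12 in log2, SE 0.21, adjusted p = 0.000482), and Gtf2e1 was not called (log2 -0.49, adjusted p = 0.0565). Gtf2b, the single subunit of TFIIB, was lower in KO at GV (89.5, 81.3 and 120.4 FPKM in WT, 58.3, 32.7 and 81.0 in KO, KO minus WT -0.82 in log2, SE 0.28, adjusted p = 0.0442). That call was lost without any of 13 single libraries, WT GV replicates 1 to 3 and KO GV replicates 1 and 2 among them (adjusted p of 0.0506 to 0.238). At MI and MII Gtf2b had log2 differences of -0.25 and 0.34 (adjusted p = 0.595 and 0.391).

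Of the TFIIH core, Gtf2h3 was lower in KO at all 3 stages, at low levels. WT libraries held 1.76, 1.83 and 1.68 FPKM at GV, 1.87, 2.86 and 2.03 at MI and 3.04, 2.27 and 2.92 at MII, and KO libraries 0.608, 0.450 and 0.878 at GV, 0.616, 0.664 and 0.317 at MI and 0.756, 0.568 and 0.678 at MII, from 33 to 324 reads. The genotypes did not overlap at any stage, with log2 differences of -0.75, -1.08 and -1.16 (adjusted p = 0.00881, 0.000477 and 0.000102). The other TFIIH members tested, Gtf2h1, Gtf2h2 and Gtf2h5, were called at no stage.

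TFIIA, which steadies TBP on the promoter, is made of Gtf2a1 and Gtf2a2, and Gtf2a1l is a germ cell paralog of Gtf2a1. At MII the TFIIA subunits were lower and the paralog higher in KO oocytes. Gtf2a1 was at 54.7, 53.8 and 46.2 FPKM in WT and 32.8, 17.0 and 21.9 in KO (KO minus WT -1.12 in log2, SE 0.29, adjusted p = 0.00614), and Gtf2a2 at 46.9, 76.3 and 54.4 FPKM in WT and 20.4, 16.5 and 29.6 in KO (KO minus WT -1.39 in log2, SE 0.27, adjusted p = 0.000716). Gtf2a1l was higher, at 40.4, 27.9 and 34.0 FPKM in WT and 65.7, 53.3 and 74.4 in KO (KO minus WT 0.90 in log2, SE 0.28, adjusted p = 0.0229). The genotypes overlapped for none of the 3 genes at MII. At GV Gtf2a1l was at 50.1, 51.2 and 34.6 FPKM in WT and 93.7, 98.6 and 59.9 in KO (KO minus WT 0.87 in log2, SE 0.28, adjusted p = 0.0387), while Gtf2a1 had a log2 difference of -0.74 that was not called (adjusted p = 0.0707). Both calls of Gtf2a1l were lost without single libraries: at MII without WT MII replicate 2 or 3 or KO MII replicate 1 or 3 (adjusted p of 0.0577 to 0.0959), and at GV without 6 libraries, any WT GV replicate among them (0.0501 to 0.161). At MI none of the 3 was called.

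**Figure D2:**
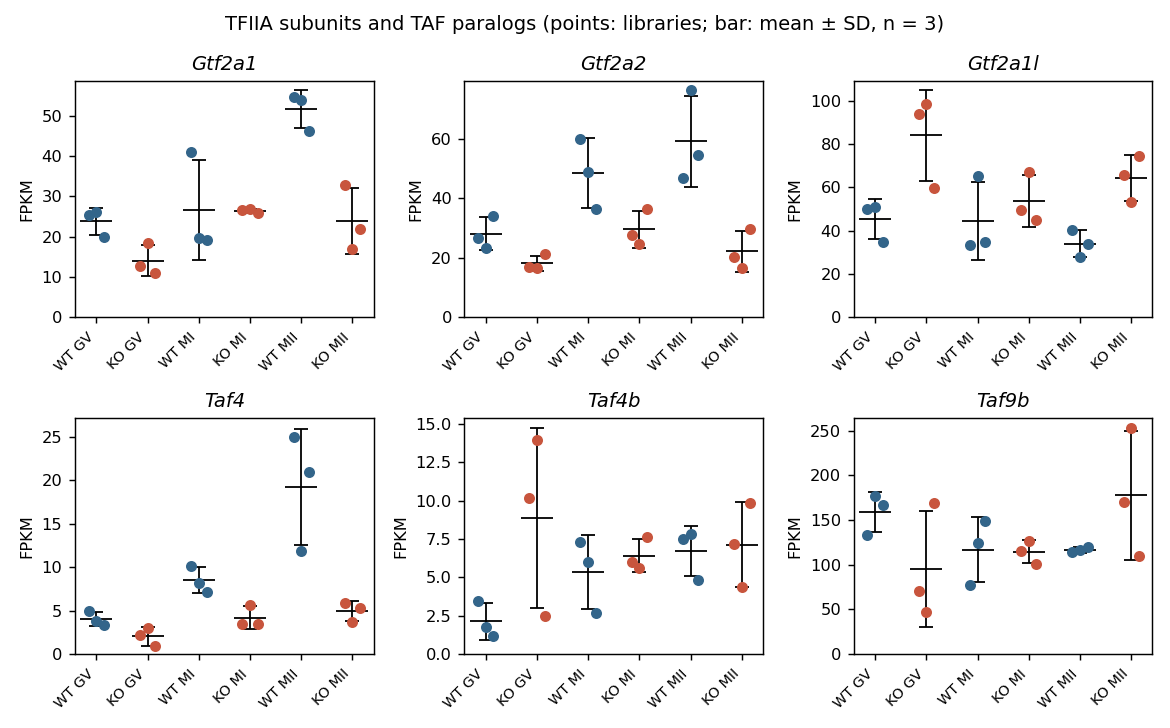
FPKM of the TFIIA subunit genes Gtf2a1 and Gtf2a2, the paralog Gtf2a1l and the TAF genes Taf4, Taf4b and Taf9b in each library of the 6 groups (points, blue for WT and red for KO), with the mean and SD of 3 libraries. At MII the KO points lie below the WT points for Gtf2a1, Gtf2a2 and Taf4 and above them for Gtf2a1l, and for Taf4b and Taf9b they overlap.

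TAFs were lower in KO in more cases than they were higher, with 3 lower and 1 higher of 20 at GV, 9 and 0 at MI, and 7 and 1 at MII. Of all genes tested, 7.49%, 13.7% and 13.8% were lower and 13.3%, 3.63% and 14.9% higher at these stages. In either direction 20%, 45% and 40% of the TAFs were called, against 20.8%, 17.3% and 28.6% of all genes tested. The median log2 difference of the TAFs was -0.22, -0.60 and -0.55 at GV, MI and MII, against 0.17, -0.13 and 0.01 over all genes tested. The 14 TFIID TAFs tested held most of the lower calls among TAFs, with 3, 6 and 6 lower at the 3 stages.

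Taf13, which pairs with Taf11 in TFIID next to TBP, differed at every stage. WT libraries held 30.4, 24.4 and 35.3 FPKM at GV, 41.6, 41.7 and 30.1 at MI and 60.9, 65.9 and 60.0 at MII. KO libraries held 8.42, 8.47 and 9.24 FPKM at GV, 12.2, 13.7 and 14.3 at MI and 13.7, 12.1 and 15.5 at MII. Every KO library at any stage was below every WT library (KO minus WT -1.66 in log2, SE 0.20, adjusted p = 4.23e-05 at GV, log2 -1.41 with adjusted p = 0.00012 at MI and log2 -2.11 with adjusted p = 7.87e-07 at MII), and the 3 calls held in each alternative. Taf11 was at 20.7 ± 7.13 FPKM in WT and 8.80 ± 1.14 in KO at MI (KO minus WT -1.10 in log2, SE 0.28, adjusted p = 0.0103), a call lost without WT MI replicate 2 (adjusted p = 0.0685). At MII it was at 17.7 ± 2.10 FPKM in WT and 6.95 ± 1.54 in KO (KO minus WT -1.25 in log2, SE 0.28, adjusted p = 0.00226), and other genes overlap 16.2% of its exon bases.

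Taf4, a scaffold subunit of TFIID, and its germ cell paralog Taf4b were called in opposite directions and at different stages. Taf4 was at 25.0, 11.9 and 20.9 FPKM in WT and 5.92, 3.67 and 5.28 in KO at MII (KO minus WT -1.73 in log2, SE 0.30, adjusted p = 0.000308). At MI it was at 8.49 ± 1.50 FPKM in WT and 4.19 ± 1.30 in KO, a difference that passed only narrowly (log2 -0.89, adjusted p = 0.0499) and was lost without any of 14 single libraries, WT MI replicates 1 to 3 and KO MI replicates 1 and 3 among them (adjusted p of 0.0502 to 0.158). Taf4b was higher in KO at GV, at 3.49, 1.74 and 1.16 FPKM in WT and 10.1, 13.9 and 2.48 in KO (KO minus WT 1.48 in log2, SE 0.44, adjusted p = 0.0255). The GV groups overlapped, with KO GV replicate 3 below WT GV replicate 1, and the call was lost without WT GV replicate 2 or 3 or KO GV replicate 1 or 2 (adjusted p of 0.0703 to 0.132). At MI and MII Taf4b had log2 differences of 0.30 and 0.04 and was not called (adjusted p = 0.697 and 0.965).

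Among the other TFIID subunits, Taf7 was at 146, 195 and 146 FPKM in WT and 56.5, 49.3 and 59.9 in KO at MII (KO minus WT -1.53 in log2, SE 0.28, adjusted p = 0.000445). Its paralog Taf7l, known from male germ cells, had 0 to 2 reads in a library. Taf8 was at 40.0 ± 1.61 FPKM in WT and 16.9 ± 6.38 in KO at GV (KO minus WT -1.26 in log2, SE 0.25, adjusted p = 0.00243), a call lost in a fit of only the 2 GV groups, and lower again at MII (log2 -0.99, adjusted p = 0.00571). Taf12 was lower at GV and MI, at 26.5 ± 1.01 FPKM in WT and 14.6 ± 2.74 in KO at GV (log2 -0.84, adjusted p = 0.017; lost without WT GV replicate 3 or KO GV replicate 2, adjusted p up to 0.0749). Taf3, which binds trimethylated lysine 4 of histone H3, was lower at MI and MII, at 125 ± 7.99 FPKM in WT and 63.4 ± 4.54 in KO at MII (KO minus WT -0.97 in log2, SE 0.19, adjusted p = 0.000879). Its call at MI (log2 -0.67, adjusted p = 0.0201) was lost without WT MI replicate 1 or KO MI replicate 1 (adjusted p = 0.069 and 0.0685) and with median-of-ratios scaling (0.132). Taf1, the largest TAF, was not called at any stage, with log2 differences of 0.63, 0.08 and -0.68 (adjusted p = 0.108, 0.881 and 0.0781). Taf9b was not called either, and its KO libraries spread widely, at 70.1, 46.8 and 169 FPKM at GV and 170.4, 253 and 109.8 at MII. The 1 TAF higher at MII was Taf5l of SAGA (0.456 ± 0.146 FPKM in WT, 2.46 ± 1.20 in KO, KO minus WT 1.19 in log2, SE 0.29, adjusted p = 0.00416).

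Mediator held both the largest falls and the largest rise among the members. Of 26 subunits tested, 5 were lower and 1 higher in KO at GV, 8 and 0 at MI, and 7 and 6 at MII, with median log2 differences of -0.10, -0.29 and 0.03. In either direction that was 23.1%, 30.8% and 50% of the 26, against 20.8%, 17.3% and 28.6% of all genes tested. The medians over all genes tested were 0.17, -0.13 and 0.01. The modules follow a list written here, which counts Med27, Med28, Med29 and Med30 in the head. The counts by module rest on that placement. By this list the head module, which touches polymerase II, had 12 members tested. Of these, 4, 6 and 5 were lower and 0, 0 and 3 higher at GV, MI and MII. None of the 5 tested subunits listed as scaffold and tail was called at any stage. Med14, the backbone of the complex, had log2 differences of 0.03, -0.19 and 0.16 (adjusted p = 0.932, 0.646 and 0.661). At an unadjusted p of 0.05 the scaffold and tail also had 0 calls at each stage.

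Med11 and Med31 were lower in KO at all 3 stages. Med11, a head subunit, was at 9.88, 7.75 and 11.7 FPKM at GV, 18.9, 19.7 and 10.6 at MI and 19.5, 15.6 and 16.5 at MII in WT, and at 2.15, 4.98 and 1.06 FPKM at GV, 2.21, 3.06 and 2.72 at MI and 2.16, 1.12 and 2.10 at MII in KO. Every KO library was below every WT library, with log2 differences of -1.65, -2.21 and -2.72 (adjusted p = 0.0022, 0.000129 and 6.17e-06); the GV call was lost in a fit of only the 2 GV groups. Med31, a small subunit of the middle module, was at 7.49, 5.15 and 6.70 FPKM at GV, 15.5, 8.50 and 4.57 at MI and 5.93, 10.4 and 7.50 at MII in WT, and at 0.917, 1.45 and 1.12 at GV, 1.47, 1.08 and 1.78 at MI and 0.601, 0.393 and 1.10 at MII in KO. Here too the genotypes did not overlap, with log2 differences of -1.78, -1.98 and -2.39 (adjusted p = 0.000928, 0.00026 and 1.67e-05), and 26.3% of its exon bases are shared with another gene.

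Med27 and Med30, which belong to the metazoan part of Mediator, showed the same direction at far higher levels. Med27 was at 248, 228 and 208 FPKM at GV, 331, 318 and 324 at MI and 347, 474 and 419 at MII in WT, and at 87.2, 109.6 and 108 at GV, 117, 123 and 96.0 at MI and 129, 111 and 184 at MII in KO. All KO libraries were below all WT libraries, with log2 differences of -1.16, -1.53 and -1.56 (adjusted p = 0.00182, 0.000116 and 3.77e-05). Med30 was at 234 ± 37.9, 314 ± 73.0 and 449.8 ± 45.5 FPKM in WT and 122 ± 16.4, 171 ± 31.1 and 178 ± 39.9 in KO, with log2 differences of -0.94, -0.86 and -1.35 (adjusted p = 0.0133, 0.0199 and 0.000408). Its call at GV was lost without WT GV replicate 3 (adjusted p = 0.0631) and that at MI without WT MI replicate 1 or 2 or KO MI replicate 3 (0.0804 to 0.0909). Together with Gtf2h3 and Taf13, these 4 Mediator genes were the 6 members lower at each stage (7.23% of 83, against 3.39% of all genes tested).

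**Figure D3:**
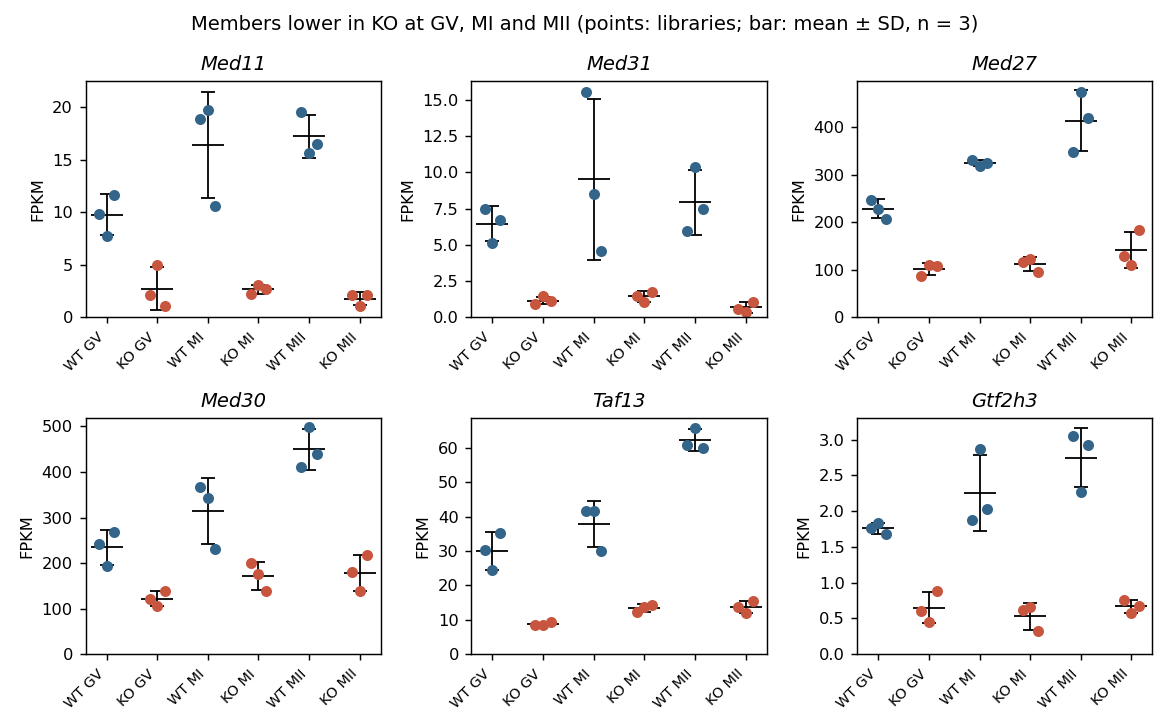
FPKM of the 6 members lower in KO at GV, MI and MII in each library of the 6 groups (points, blue for WT and red for KO), with the mean and SD of 3 libraries. In each panel the KO points lie below the WT points of the same stage, and for Taf13 all KO points lie between 8.42 and 15.5 FPKM while the WT points lie between 24.4 and 65.9.

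Med28, another metazoan Mediator subunit, was the member with the largest rise. WT libraries held 527, 492 and 540.1 FPKM at GV, 617, 483 and 631 at MI and 79.1, 71.9 and 64.6 at MII. KO libraries held 600.4, 670.2 and 511 FPKM at GV, 637, 629 and 549 at MI and 459, 348 and 566 at MII. The WT libraries at MII stood alone at low values, and the genotypes differed there with no overlap (KO minus WT 2.63 in log2, SE 0.22, adjusted p = 1.04e-07), a call that held in each alternative. At GV and MI the differences of 0.18 and 0.08 were not called (adjusted p = 0.549 and 0.85). Med6, a head subunit, was at 66.0, 102 and 62.0 FPKM in WT and 159, 141 and 155 in KO at MII (KO minus WT 1.01 in log2, SE 0.27, adjusted p = 0.00879).

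Med26, which joins Mediator to elongation factors, was higher in KO at GV and MII. It was at 9.53, 10.2 and 3.28 FPKM in WT and 22.9, 20.3 and 11.3 in KO at GV (KO minus WT 1.21 in log2, SE 0.33, adjusted p = 0.0184), a call lost without WT GV replicate 3 or KO GV replicate 1 or 2 (adjusted p of 0.0623 to 0.111). At MII it was at 6.53, 3.87 and 4.21 FPKM in WT and 13.8, 13.3 and 16.6 in KO (KO minus WT 1.43 in log2, SE 0.33, adjusted p = 0.0034). Med19 was higher at MII, at 6.45, 3.72 and 4.27 FPKM in WT and 14.6, 9.25 and 12.7 in KO (KO minus WT 1.19 in log2, SE 0.33, adjusted p = 0.0108), a call lost without WT MII replicate 2 or KO MII replicate 1 (adjusted p = 0.0522 and 0.0524). Of the kinase module, which binds Mediator reversibly, Med13, which links it to the core, was lower at MII (5.22 ± 0.559 FPKM in WT, 1.68 ± 0.633 in KO, KO minus WT -1.24 in log2, SE 0.31, adjusted p = 0.00514), and Med12, which activates the kinase, was too low to be tested, at no more than 0.685 FPKM in any library.

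**Figure D4:**
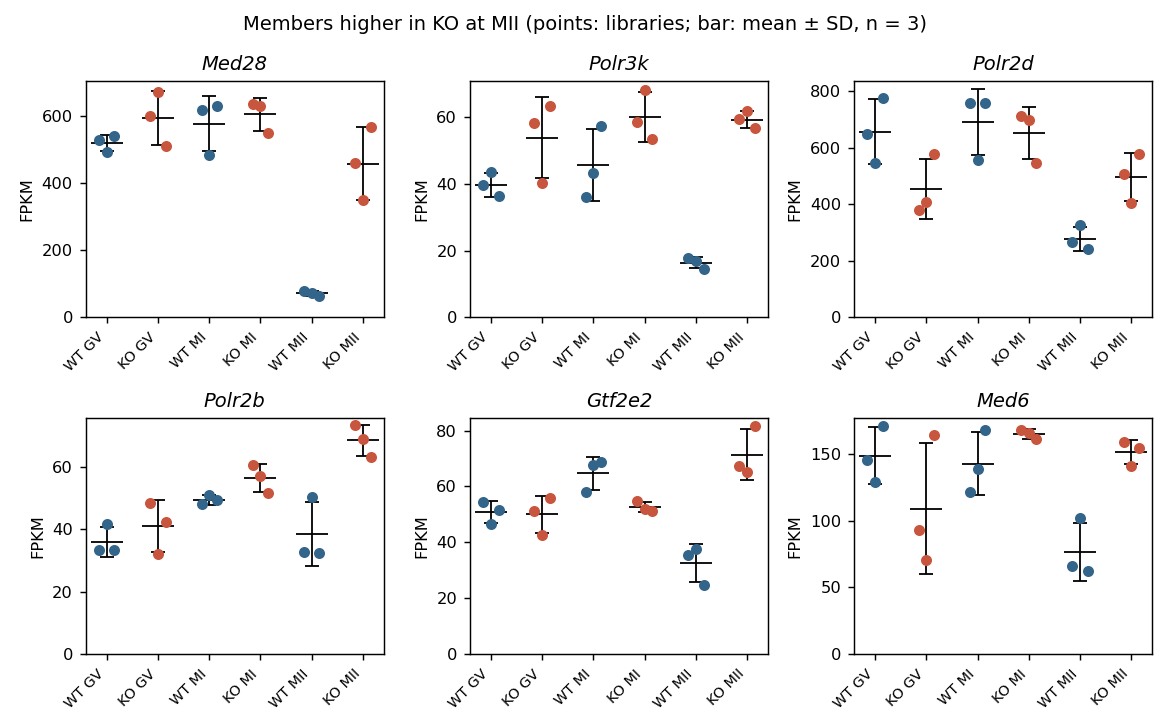
FPKM of 6 members higher in KO at MII, namely Med28, Polr3k, Polr2d, Polr2b, Gtf2e2 and Med6, in each library of the 6 groups (points, blue for WT and red for KO), with the mean and SD of 3 libraries. At MII every KO point lies above every WT point in each panel, and for Med28 the WT points at MII lie between 64.6 and 79.1 FPKM against 348 to 670.2 in the KO libraries of all stages.

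The 3′ ends of these mRNAs were searched for letters that guide cytoplasmic polyadenylation in oocytes, where the CPE (TTTTAT or TTTTAAT in the DNA) is bound by CPEB near the polyadenylation hexamer (AATAAA or ATTAAA). The last 100 bases of 1 annotated transcript per gene were searched on the transcribed strand, and overlapping matches were counted as 1 gene. A CPE was present in 19.9% of the 8559 protein-coding genes tested, and in 18 of the 83 members tested (21.7%). It was present in 6 of the 21 members lower in KO at MII (28.6%), 3 of the 16 higher (18.8%) and 9 of the 46 not called (19.6%). Among all protein-coding genes tested, 31.2% of the 1170 lower at MII and 15.9% of the 1339 higher held one. These shares describe annotated ends and no test was made, and the end used in oocytes can differ. The windows below are the stretches around the CPE in the 6 lower and 3 higher members, 5′ to 3′, from GRCm38 with GENCODE vM21, with the CPE and any hexamer in the window in capitals. They are shown because these are the called members at MII in which the letters stand. The first 6 are lower in KO at MII.
Med11, chr11:70453688-70453717, plus strand: actaagtgTTTTAATAATAAAagctgtatt
Med31, chr11:72211729-72211758, minus strand: ggcaaattTTTTATtAATAAAttatttcta
Gtf2a1, chr12:91555267-91555296, minus strand: taatcatAATAAAgataTTTTATttattgc
Gtf2a2, chr9:70022661-70022690, plus strand: atgtaacttttTTTTAATgacaaatcaaaa
Taf4, chr2:179912190-179912219, minus strand: taattgctattgTTTTATataggattgaaa
Taf11, chr17:27901178-27901207, minus strand: tgggaaagtttaTTTTATtttgttgcagac
The next 3 are higher in KO at MII. Of these, the Polr2k call (log2 1.22, limma adjusted p = 0.0149) was lost without 3 single libraries (0.0547 to 0.0827). It was also lost with no filter and with a pseudocount of 5.
Polr2b, chr5:77349247-77349276, plus strand: ttgtgataagaaTTTTATttgttttgttta
Med19, chr2:84688144-84688173, plus strand: gatcaggatttaTTTTATtccttgttggtt
Polr2k, chr15:36176908-36176937, plus strand: gtaTTTTAATactttgtataaaggaaattt
In Med11 and Med31 the CPE shown starts 7 bases before the hexamer, and in Gtf2a1 it starts 10 bases after it. In the other 6 genes the hexamer lies outside the window, 34 to 80 bases after the start of the CPE shown. Gtf2a1, Med11 and Taf4 each held 2 CPE matches in the last 100 bases, of which the one nearest the hexamer is shown. Med27, Med30, Gtf2h3 and Taf13, lower at each stage as Med11 and Med31 were, held no CPE letters in the last 100 bases.

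The change over maturation was compared within each genotype. In WT, MII oocytes differed from GV oocytes in 50 of 83 members, 21 higher and 29 lower, with 28.9% and 28.8% of all genes tested called in these directions (57.7% in either). Of 24 genes named as polymerase subunits, Polr2m included, 13 fell and 1 rose. TFIID TAFs had 7 of 14 that rose and 1 that fell. Mediator subunits rose in 7 and fell in 8 of 26. Levels of WT and KO at MII entered the comparisons above as well, so these share libraries with the differences between genotypes at MII.

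Polr2k, Polr2l and Polr2e, small subunits shared by the polymerases, and Mediator genes had the largest falls in WT. Of the 5 shared subunits tested, 3 were lower, and the other 2 had differences above 0, up to 0.93, that were not called. Polr2g, which is not shared, changed by -2.557 in log2 (limma adjusted p = 4.06e-08), next to Polr2e. Polr2k fell from 27.1, 12.4 and 32.0 FPKM at GV to 1.05, 0.487 and 0.591 at MII (log2 -3.78, adjusted p = 7.86e-08). Polr2l fell from 13.6 ± 5.15 to 0.574 ± 0.126 FPKM (log2 -3.15, adjusted p = 1.08e-05) and Polr2e from 12.3 ± 1.13 to 1.25 ± 0.202 FPKM (log2 -2.56, adjusted p = 1.73e-07). In KO the means of Polr2k, Polr2l and Polr2e were 28.1, 15.3 and 14.4 FPKM at GV and 3.14, 1.41 and 2.22 at MII. These were changes of -2.82, -2.43 and -2.21 on the log2 scale. The 5 shared subunits together summed to 59.6, 176.8 and 58.1 FPKM in KO GV replicates 1 to 3. The KO means at GV may thus rest in part on replicate 2, a library that stood apart. Of Mediator, Med28, Med17 and Med7 fell most in WT, with log2 changes of -2.84, -2.75 and -2.68 (adjusted p = 4.94e-09, 2.38e-07 and 3.17e-08). Med17, a head subunit on which the module is built, went from 132, 132 and 96.8 FPKM to 19.9, 13.9 and 17.2.

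Rises in WT were led by TFIID genes. Taf4 rose from 4.91, 3.81 and 3.30 FPKM at GV to 25.0, 11.9 and 20.9 at MII (log2 1.97, adjusted p = 2.97e-05), and Taf3 from 41.7 ± 1.17 to 125 ± 7.99 FPKM (log2 1.56, adjusted p = 2.13e-06). Taf4b and Taf5 rose by log2 1.35 and 1.16; the Taf4b call was lost without WT GV replicate 3 (adjusted p = 0.0674). Med15, a tail subunit that receives activators, rose from 14.1 ± 5.04 to 45.1 ± 8.91 FPKM and Med13 from 1.17 ± 0.417 to 5.22 ± 0.559, with log2 changes of 1.65 and 1.53. FPKM is relative to the library, so a rise can be a rise in amount, a longer tail or a smaller loss than that of other mRNAs, and these cannot be told apart. Likewise, fewer oocytes giving RNA and less RNA per oocyte cannot be told apart in a bulk library. From GV to MI in WT 4 members changed, 3 higher and 1 lower, with 4.82% of all genes tested called, 2.75% higher and 2.06% lower. They were Gtf2e1, Taf3 and Taf15, which rose, and Med17, which fell, and each of these 4 calls was lost without at least 1 library. None was called without WT GV replicate 1 or 3 or WT MI replicate 1, and 7 were higher and 3 lower without KO GV replicate 3.

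In KO, 39 of 83 members differed between MII and GV, 15 higher and 24 lower, with 11.9% and 25.4% of all genes tested called in these directions. With quantile normalization 24 were higher and 20 lower. Between MI and GV 2 were higher and 12 lower, with 2.53% and 10.4% of all genes tested, and the counts ran from 0 higher and 6 lower without KO MI replicate 1 to 6 higher and 19 lower without KO GV replicate 3. Falls from GV to MII were called in both genotypes for 20 members (24.1%, against 19.7% of all genes tested) and rises for 6 (7.23%, against 7.45%). No member and 0.407% of all genes were called in opposite directions. Of the 29 members that fell in WT, 9 were not called in KO (10.8% of members, against 8.83% of all genes), and these included Med28, Med6, Med4, Polr2d, Polr3k and Gtf2e2. That count is no test of a difference between the genotypes.

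The difference between the genotypes in the change from GV to MII was tested directly and was called for 6 members, 5 with a higher and 1 with a lower value in KO, with 3.88% and 1.73% of all genes tested called in these directions (5.61% in either). Med28 fell by 2.84 on the log2 scale in WT, while in KO it changed by -0.39 (adjusted p = 0.163), a difference of 2.45 (SE 0.30, adjusted p = 0.000132). Polr3k changed by -1.23 in WT and 0.16 in KO (difference 1.39, adjusted p = 0.0159), Polr2d by -1.24 and 0.14 (difference 1.38, adjusted p = 0.0241). Med6 changed by -0.97 and 0.56 (difference 1.53, adjusted p = 0.0263) and Gtf2e2 by -0.64 and 0.51 (difference 1.15, adjusted p = 0.028). Taf15 changed by 1.54 and -0.10 (difference -1.63, adjusted p = 0.0336), from 0.767, 0.710 and 0.626 FPKM at GV to 4.10, 5.58 and 2.57 at MII in WT and from 1.74, 4.22 and 1.07 to 1.80, 1.46 and 2.51 in KO, where KO GV replicate 2 was the highest of the GV libraries. Taf15 was singled out after its values were seen. The Med28 call held in each alternative, and each of the other 5 was lost without at least 1 library. For Polr3k that was WT MII replicate 3 (adjusted p = 0.0521). Those of Polr2d, Med6, Gtf2e2 and Taf15 were lost without 7, 6, 5 and 8 libraries, with adjusted p of 0.0502 to 0.0911. Without KO GV replicate 3, 13 members were called higher and 18 lower, and 2 in all were called without WT GV replicate 1 or 3, WT MII replicate 3 or KO MII replicate 1. For the change from GV to MI no member was called by limma, with 0.0775% of all genes tested called (0.00969% higher and 0.0678% lower); at an unadjusted p of 0.05 there were 0 higher and 10 lower, voom called 0, and 1 was higher and 6 lower without KO GV replicate 3.

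**Figure D5:**
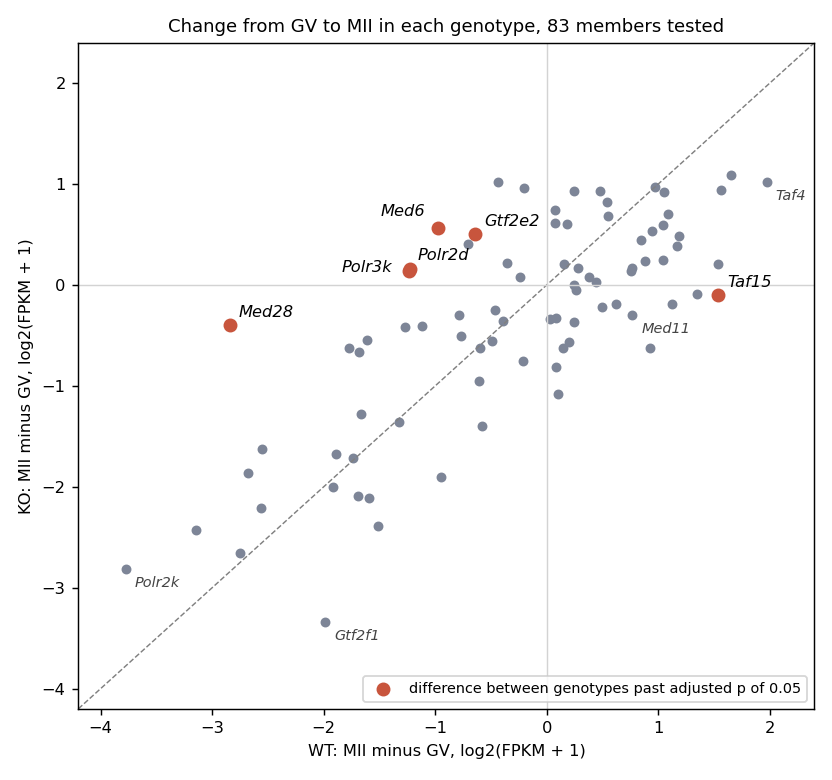
Change in log2(FPKM + 1) from GV to MII in WT (x axis) and in KO (y axis) for the 83 members tested, with the dashed line for equal changes and red for members whose change differed between the genotypes at a limma adjusted p under 0.05. Med28 lies farthest above the line, at -2.84 in WT and -0.39 in KO, and Taf15 lies below it, at 1.54 and -0.10.

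The machinery holds further genes that the name rule leaves out, and a list of 61 was written from general knowledge, of which 51 were tested. In these, 7 were higher and 6 lower in KO at GV, 2 and 9 at MI, and 12 and 7 at MII. In either direction that was 25.5%, 21.6% and 37.3% of the list, against 20.8%, 17.3% and 28.6% of all genes tested, with median log2 differences of 0.36, -0.12 and 0.02. Tbp, which binds the TATA box, was at 4.53 ± 0.477 FPKM in WT and 1.24 ± 0.601 in KO at GV (KO minus WT -1.34 in log2, SE 0.22, adjusted p = 0.000633), and at 3.48 ± 0.717 FPKM in WT and 1.34 ± 0.152 in KO at MI (KO minus WT -0.93 in log2, SE 0.22, adjusted p = 0.00744), and other genes overlap 19.0% of its exon bases. At MII its difference of -0.36 was not called (adjusted p = 0.246). Tbpl2, the TBP paralog that takes the place of TBP in growing oocytes, was not called at any stage, with log2 differences of 0.39 and -0.53 at GV and MI (adjusted p = 0.479 and 0.382) and levels of 8.75 ± 1.88 FPKM in WT and 8.80 ± 2.27 in KO at MII. Tbpl1, a further paralog, named after its values were seen, was lower in KO at each stage, at 3.09 ± 0.372, 5.92 ± 1.60 and 7.81 ± 0.496 FPKM in WT and 0.634 ± 0.0455, 0.857 ± 0.574 and 1.07 ± 0.110 in KO (difference of log2 -1.32, -1.92 and -2.09). Of the 6 kinases, cyclins and helicases of TFIIH and Mediator that were tested, 1 was higher and 1 lower at GV, 0 and 1 at MI, and 4 and 0 at MII.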

How the data were processed

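FPKM per gene, as deposited by the authors for 18 libraries, were used as they stand. Per the labels' protocols, cDNA from 15 oocytes was made by the Smart-seq2 method with oligo(dT) priming, sheared and sequenced on an Illumina instrument. The submitters' processing notes name mm10 and DESeq2 1.38.3 without their roles; aligner, counter and strand setting: not given in the sources used here. Gene symbols, gene types and exons came from GENCODE vM21 (GRCm38), in which 27829 of the 27874 identifiers were found. Depth was read from the FPKM steps: 91.0 to 93.3% of values per library were within 0.05 of whole reads. Reads are PCR products without molecular identifiers.

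The 10320 genes that reached 1 FPKM in 3 or more libraries were fitted with limma 3.58.1 in R 4.3.3 on log2(FPKM + 1), which understates changes of low genes, with 6 group means, a variance trend and 12 residual degrees of freedom. P-values were adjusted by the Benjamini-Hochberg method within each comparison, with a threshold of 0.05. The fit was also run on simulated data with the same SD per gene in all libraries, which lack the unequal spread of the real ones. Its outcome is not given here. Python 3.11.15, pandas 2.3.3, numpy 2.4.6 and matplotlib 3.10.9 were used.

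Named members were, each way, up to 8 with the largest called differences between genotypes and up to 6 for the change in WT and its difference, with a mean of at least 5 FPKM, plus fixed catalytic subunits and paralogs; others named beside small counts were chosen after their values were seen. One member is counted but not reported here by name. Members, roles and lists were chosen with earlier results of these data known. Alternatives were pseudocounts of 0.1 and 5, no filter or one at 5 FPKM, scaling by TPM, by median of ratios or by quantiles, fits of only the groups compared, a replicate block, 18 fits each without 1 library and, chosen after seeing the data, voom on the recovered reads.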

Additional observations from a re-analysis of the deposited data

Results flagged for a closer look

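For 6 of the 83 members tested (7.23%) the difference between KO and WT was called different at MII and at GV by limma. Over all genes tested the share was 5.61%. Of the 6 calls only that of Med28 was kept without any 1 library. The KO effect at MII minus that at GV, on the log2(FPKM + 1) scale, was 2.45 for Med28, 1.53 for Med6, 1.39 for Polr3k, 1.38 for Polr2d, 1.15 for Gtf2e2 and -1.63 for Taf15. The value of Taf15 rests in part on KO GV replicate 2, at 4.22 FPKM against 1.74 and 1.07 in the other KO GV libraries, and that library stood apart over all genes.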

How the results depend on the processing

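No call of a member reversed its direction under any alternative run. Differences called neither in the main fit nor in the alternative were not checked for direction. Of the 61 calls named by the rule, 44 were kept without any 1 library, 45 in all other alternatives and 42 in all of both. These include the calls of Lsm14b, the gene missing in KO, and of Tbp, which are no members and were kept throughout. Of the member calls alone, 3 of 15 at GV, 11 of 22 at MI and 28 of 37 at MII were kept in every alternative. The count of members called at GV was 15, and became 27 with median-of-ratios scaling and 3 with only the groups compared. For WT from GV to MI the count of 4 became 1 with no filter, 8 with median-of-ratios scaling and 7 with quantile normalization. For KO from GV to MI the count of 14 became 9 with no filter, 23 with quantile normalization and 2 with only the groups compared, and for KO from GV to MII the count of 39 became 24 with only the groups compared. For the genotype difference from GV to MII the count of 6 became 3 with no filter, 13 with median-of-ratios scaling, 14 with quantile normalization and 3 with only the groups compared. The cause was not tested, except that fits of only the groups compared hold fewer samples. Without 1 library the counts were 8 to 33 at GV, 12 to 27 at MI, 30 to 43 at MII, 0 to 10 and 45 to 56 for WT from GV to MI and to MII, 6 to 25 and 28 to 40 for KO, and 2 to 31 and 0 to 7 for the differences to MII and to MI. Scaling moved the split of calls for KO from GV to MII to 24 higher and 20 lower with quantile normalization and 21 and 22 with TPM scaling. The same held for KO from GV to MI, at 5 higher and 13 lower with median-of-ratios scaling and 9 and 14 with quantile normalization, and for the difference to MII, at 9 and 4, 9 and 5, and 5 and 2 with median-of-ratios, quantile and TPM scaling. Over all genes, 2146 were called at GV, 302 with only the groups compared and 1427 with a filter at 5 FPKM. With the replicate number as a block, 15 members were called at GV, 22 at MI, 37 at MII, 50 for WT and 39 for KO from GV to MII, and 6 for the difference. The genes were not all the same: the block ended the calls of Gtf2b at GV (adjusted p = 0.0543), Taf4 at MI (0.0505), and Gtf2h3 and Med11 for WT from GV to MII (0.0544 and 0.0558), and gave calls of Taf15 at GV, Polr3a at MI, and Med14 and Med24 for WT. From GV to MI it ended Med17 and gave Med13 in WT, and ended Polr2h and gave Polr3a in KO; in the other comparisons it changed no member's call. Same-numbered WT and KO libraries deviated together at r over 0.1 in 4 of 9 pairs (-0.17 to 0.36), so the numbers were not taken to pair samples. Depth limits the low members: Gtf2h3 rests on 33 to 324 reads and Polr2a on 5 to 106 reads per library.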
